A study of Mus musculus with 64 samples.

Results

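The unfolded protein response and ATF4 genes were followed in liver tumours and in the liver around them, in mice given BEZ235, RAD001, both drugs or placebo. The set held 40 listed genes, taken by symbol from the platform annotation. It was divided into 5 sensors and switches of the response, 16 chaperones and folding enzymes, 7 genes of protein degradation and translocation, and 12 genes of the ATF4 arm. A probe was present for 36 of the 40. Atf6, Dnajb11, Sdf2l1 and Ero1l (now Ero1a) had none, and the probes of Canx, Manf and Ssr1 did not exceed background on enough arrays. The remaining 33 members were tested among 10495 genes of the whole array: 4 sensors, 11 chaperones, 6 genes of degradation and translocation and 12 genes of the ATF4 arm.

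The animals were male C57BL/6 mice, all injected with diethylnitrosamine at 50 mg/kg when 2 weeks old, a carcinogen that causes hepatocellular tumours. Treatment by gavage lasted 28 days from about 44 weeks of age, and tissue was taken at 48 weeks, 3 h after food was withdrawn. The last RAD001 dose came when food was withdrawn and the last BEZ235 dose 1 h before sacrifice. BEZ235, an inhibitor of the catalytic sites of PI3K and mTOR, was given at 30 mg/kg to 6 tumour-bearing animals (10 tumours) and 6 animals with a liver array. RAD001 (everolimus), an allosteric inhibitor of mTORC1, was given at 10 mg/kg (10 tumours of 6 animals, 7 livers). The combination held less of each, 2.5 mg/kg RAD001 with 18 mg/kg BEZ235 (7 tumours of 4 animals, 7 livers), and placebo animals gave 10 tumours of 6 animals and 7 livers. Every liver came from a carcinogen-treated animal, so no untreated liver stands behind the liver values. Between 4 and 5 animals of a treatment gave both tissues.

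The endoplasmic reticulum folds secreted and membrane proteins, of which hepatocytes make large amounts. When unfolded proteins collect there, sensors in its membrane respond. IRE1 (Ern1) splices the mRNA of the transcription factor XBP1, ATF6 is released from its membrane, and both factors raise chaperones, disulfide isomerases and the machinery that degrades misfolded proteins. PERK (Eif2ak3) phosphorylates eIF2alpha, which lowers general translation and lets ATF4 be made. ATF4 then raises genes of amino acid uptake and synthesis together with CHOP (Ddit3) and Trib3. Other kinases of eIF2alpha, and mTORC1, also act on ATF4, so the ATF4 arm can move apart from the chaperone arm. The arrays measured total mRNA per gene and give no splicing of Xbp1 and no protein or phosphorylation.

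Each value is a log2 intensity of a tissue in an animal, and separate tumours of an animal were averaged. Levels and overlap of tumours below refer to these averages unless separate tumours are named. Separate tumours can overlap where the averages do not. Counts above background are over arrays. Differences are tumour minus liver or treated minus placebo on that log2 scale, with adjusted p from limma and a limit of 0.05. Deposited array medians lay between 9.20 and 9.59 intensity units in treated animals and between 9.60 and 9.78 in placebo animals, and the deposited values had been normalized treatment by treatment. A shift common to all arrays of a treatment therefore cannot be told apart from that step. A tumour score over 1072 genes outside the set was scaled to 1 at the mean of placebo tumours and 0 at that of placebo livers. It was 0.301 in the tumour of BEZ235 animal 693, 0.457 and 0.574 in RAD001 animals 732 and 730, and 0.389 in combination animal 773, against 0.873 to 1.11 in placebo tumours. These 4 animals, with tumour scores under 0.6, are called those with liver-like tumours below, and counts are also given without them. The score of animal 730 lies nearer 1 than 0. Leaving out tumours because they lie toward liver favours differences past the limit, so those counts lend no further support. The liver of combination animal 742 scored 0.281, the highest of the livers, and was kept.

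The tissue label was checked with markers. Of 9 hepatocyte markers all but Apob, which had no probe, were measured, with summed intensities of 125019 to 138580 in placebo tumours and 157858 to 166332 in placebo livers. Of the 8 measured, 2 rose and 2 fell in placebo tumours. Of 8 tested macrophage markers 5 fell and none rose, with sums of 630.1 to 3600.3 in tumours and 2452.0 to 6780.4 in livers. Cd68 and Csf1r had no probe and were not analysed here. Of 8 immediate early genes, a class that is induced quickly by many stimuli, 5 rose and 1 fell, with sums of 12919 to 19440.6 in tumours and 3244.7 to 8647.2 in livers. In the other lists, 3 rose and 1 fell of 9 stellate cell and fibroblast genes, and 2 rose of 6 endothelial genes. Their summed intensities leaned the other way. Medians of the sums were 4705.5 in placebo tumours and 5342.3 in placebo livers for the stellate list. For the endothelial list they were 3192.7 and 4888.7. Of 2 cholangiocyte genes 1 rose, and none of 3 neutrophil genes passed. Of the plasma cell list, whose cells carry a strong secretory programme, the probes of Jchain, Cd79a and Pou2af1 did not exceed background on enough arrays, and none of the 3 tested genes passed. The part of these lists in the results was not tested. In bulk tissue, fewer cells of a type and less RNA per cell cannot be told apart.

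The promoters shown here are a selection from members that the results return to and that hold an exact match to a motif of either arm. Others with a match, such as Hsp90b1, Creld2 and Vldlr, are not shown. Each covers 300 bases, most of them before the start of the gene, 5′ to 3′ on the strand of the gene, from RefSeq on GRCm38.p6, and capitals mark the match. The first 3 belong to chaperones and hold the endoplasmic reticulum stress element, CCAAT and CCACG with any 9 bases between them, a sequence that ATF6 and XBP1 can bind beside NF-Y. The other 4 belong to the ATF4 arm and hold the C/EBP-ATF response element, TGATGNAA, which ATF4 binds with a partner.
Hspa5, chr2:34771840-34772139, + strand: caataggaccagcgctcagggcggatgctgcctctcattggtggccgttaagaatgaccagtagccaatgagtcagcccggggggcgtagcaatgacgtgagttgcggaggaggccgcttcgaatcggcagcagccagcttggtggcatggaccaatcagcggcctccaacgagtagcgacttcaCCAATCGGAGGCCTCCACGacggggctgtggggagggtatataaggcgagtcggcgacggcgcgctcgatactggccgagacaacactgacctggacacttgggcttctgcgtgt
Pdia6, chr12:17266339-17266638, + strand: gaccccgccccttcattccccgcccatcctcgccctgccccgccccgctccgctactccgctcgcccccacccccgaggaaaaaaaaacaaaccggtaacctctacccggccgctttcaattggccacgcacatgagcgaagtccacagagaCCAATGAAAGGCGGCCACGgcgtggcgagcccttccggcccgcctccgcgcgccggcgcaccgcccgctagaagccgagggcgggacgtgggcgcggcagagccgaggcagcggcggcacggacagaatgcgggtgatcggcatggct
Dnajc3, chr14:118937682-118937981, + strand: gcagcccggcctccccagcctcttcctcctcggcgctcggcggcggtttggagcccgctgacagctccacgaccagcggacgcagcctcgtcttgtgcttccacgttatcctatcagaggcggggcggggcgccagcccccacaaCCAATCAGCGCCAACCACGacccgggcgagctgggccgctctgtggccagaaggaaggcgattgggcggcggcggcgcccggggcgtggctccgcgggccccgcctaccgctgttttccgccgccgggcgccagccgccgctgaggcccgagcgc
Asns, chr6:7693160-7693459, - strand: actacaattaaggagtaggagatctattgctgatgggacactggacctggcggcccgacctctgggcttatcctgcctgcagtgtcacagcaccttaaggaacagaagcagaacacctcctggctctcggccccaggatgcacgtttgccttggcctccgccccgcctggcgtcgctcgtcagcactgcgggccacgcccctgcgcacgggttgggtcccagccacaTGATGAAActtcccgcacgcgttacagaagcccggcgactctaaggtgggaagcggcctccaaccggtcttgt
Chac1, chr2:119350992-119351291, + strand: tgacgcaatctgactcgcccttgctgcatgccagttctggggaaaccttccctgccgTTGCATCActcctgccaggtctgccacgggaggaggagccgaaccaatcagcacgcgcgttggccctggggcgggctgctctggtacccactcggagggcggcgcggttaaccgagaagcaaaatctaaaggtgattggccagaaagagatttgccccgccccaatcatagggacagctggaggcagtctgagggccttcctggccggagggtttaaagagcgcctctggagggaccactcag
Trib3, chr2:152344011-152344310, - strand: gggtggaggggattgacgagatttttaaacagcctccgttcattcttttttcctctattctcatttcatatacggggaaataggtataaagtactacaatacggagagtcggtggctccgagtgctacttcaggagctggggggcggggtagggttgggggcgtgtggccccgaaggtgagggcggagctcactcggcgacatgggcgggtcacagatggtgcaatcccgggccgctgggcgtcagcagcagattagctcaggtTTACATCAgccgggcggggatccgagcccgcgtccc
Slc7a11, chr3:50443564-50443863, - strand: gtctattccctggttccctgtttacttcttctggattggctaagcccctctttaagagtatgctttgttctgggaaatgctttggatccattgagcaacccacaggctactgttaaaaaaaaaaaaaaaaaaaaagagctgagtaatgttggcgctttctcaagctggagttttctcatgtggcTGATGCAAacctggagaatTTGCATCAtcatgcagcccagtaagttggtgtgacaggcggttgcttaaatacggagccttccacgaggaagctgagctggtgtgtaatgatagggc

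Both strands were searched in 32851 promoters of 300 bases, of which 34 members had an entry. The endoplasmic reticulum stress element was found in 0.119% of all promoters. Among the members it lay in 7 of 14 chaperone genes with an entry (Calr, Canx, Creld2, Dnajc3, Hsp90b1, Hspa5 and Pdia6), in Syvn1, and in 0 of 11 genes of the ATF4 arm. A related form, ATTGG and CCACG with any 1 base between them, was found in 0.0365% of promoters and in Dnajb11 and Herpud1. The ATF4 element was found in 3.97% of promoters, in 5 of 11 genes of the ATF4 arm (Asns, Chac1, Slc7a11, Trib3 and Vldlr), in 0 of 14 chaperone genes and in Herpud1. TGACGTGG, an XBP1 element, was found in 0.676% of promoters and in no member. No matches of different motifs overlapped in a member. These are letter matches in short windows, and the lists were drawn from known targets, so the counts describe the set and show no binding. Sec61a1, Slc7a5, Hyou1, Ppp1r15b, Atf6 and Manf were not searched.

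In placebo animals the members leaned upward in tumours, with the largest differences in the ATF4 arm. Of 33 members 11 rose and 1 fell, 12 in all, while 34.8% of all genes passed in either direction, 18.8% upward and 16% downward. The total is close to the share among all genes. The median difference was 0.41 over the members and 0.0069 over all genes, and 28 of the 33 differences, against 50.8% of all genes, were above 0. Without the 4 animals with liver-like tumours, 15 rose and 2 fell, against 19.9% and 16.9% of all genes. All 4 were treated animals, so the placebo differences stayed the same and the counts changed through the shared estimate of the spread. In the ATF4 arm 5 of 12 rose, with a median of 0.67, and in the chaperone class 4 of 11, with a median of 0.41. One gene of 6 in degradation and translocation rose, and 1 sensor of 4 rose and 1 fell.

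**Figure D1:**
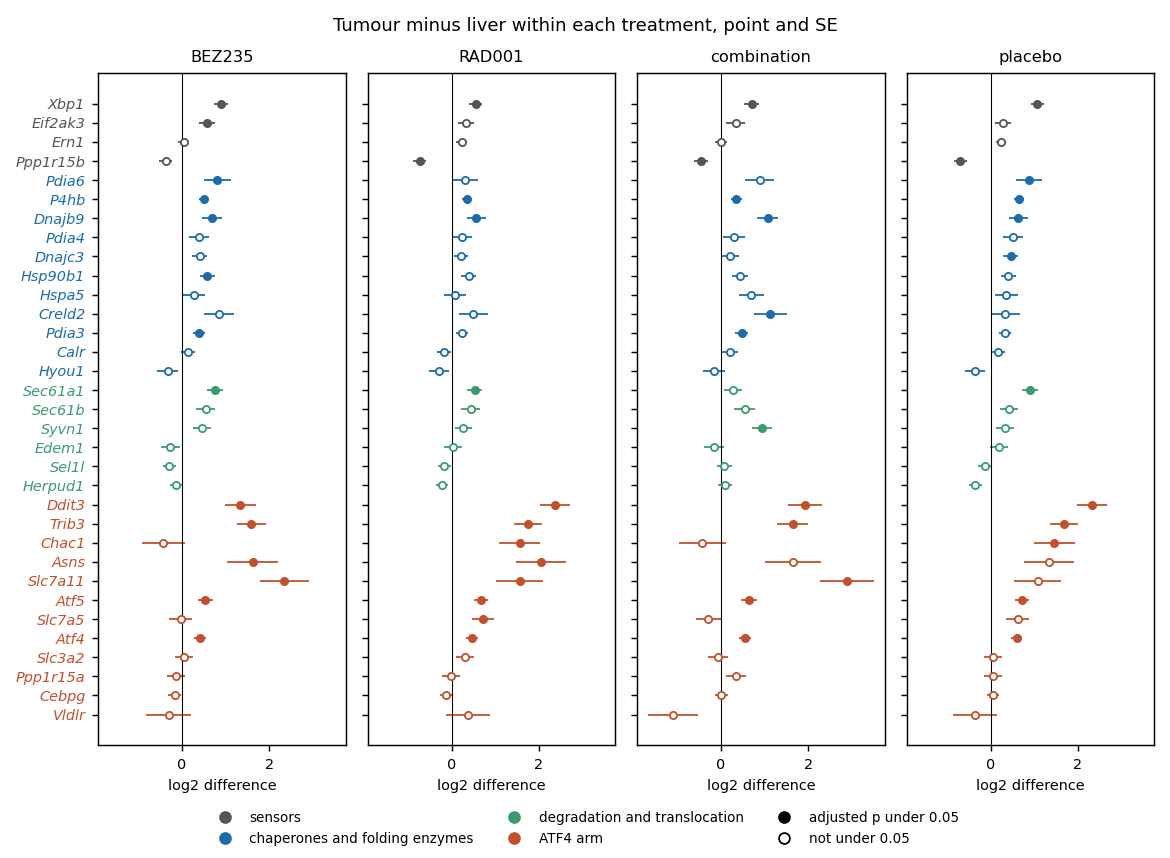
Log2 difference of tumour minus liver for each of the 33 tested members (rows, grouped by class) in each treatment (columns), with filled marks for differences past the adjusted limit. Xbp1, P4hb, Dnajb9, Atf4, Atf5, Ddit3 and Trib3 were higher in tumours in all 4 comparisons, and Ppp1r15b passed the limit downward in 3.

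Among the sensors, Xbp1, the transcription factor whose mRNA IRE1 splices, was the member with the lowest adjusted p. Its lowest, median and highest values were 13.26, 13.35 and 13.66 in the 6 placebo tumours, against 11.98, 12.36 and 12.68 in the 7 placebo livers. The groups did not overlap, and the difference was 1.07 (SE 0.16, adjusted p = 2.94e-07), a 2.10-fold higher level. Ppp1r15b, the constitutive subunit that directs phosphatase to eIF2alpha, had 5.97, 6.58 and 6.88 in tumours, against 6.95, 7.17 and 7.40 in livers. It was the only member past the limit downward (-0.69, SE 0.14, adjusted p = 9.62e-05), again without overlap, in all 6 tumour averages. Non-overlap of this kind held for 9.45% of all genes upward and 8.13% downward, and for 8 members upward and 1 downward.

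Eif2ak3, which encodes PERK, did not pass (6.83 ± 0.36 in tumours, n = 6, against 6.54 ± 0.18 in livers, n = 7, SD, adjusted p = 0.257). Ern1, which encodes IRE1, was too dim to judge. It exceeded background on 6 of 64 arrays, among them 1 of 10 placebo tumours and 0 of 7 placebo livers, and it allowed no fold in either direction.

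**Figure D2:**
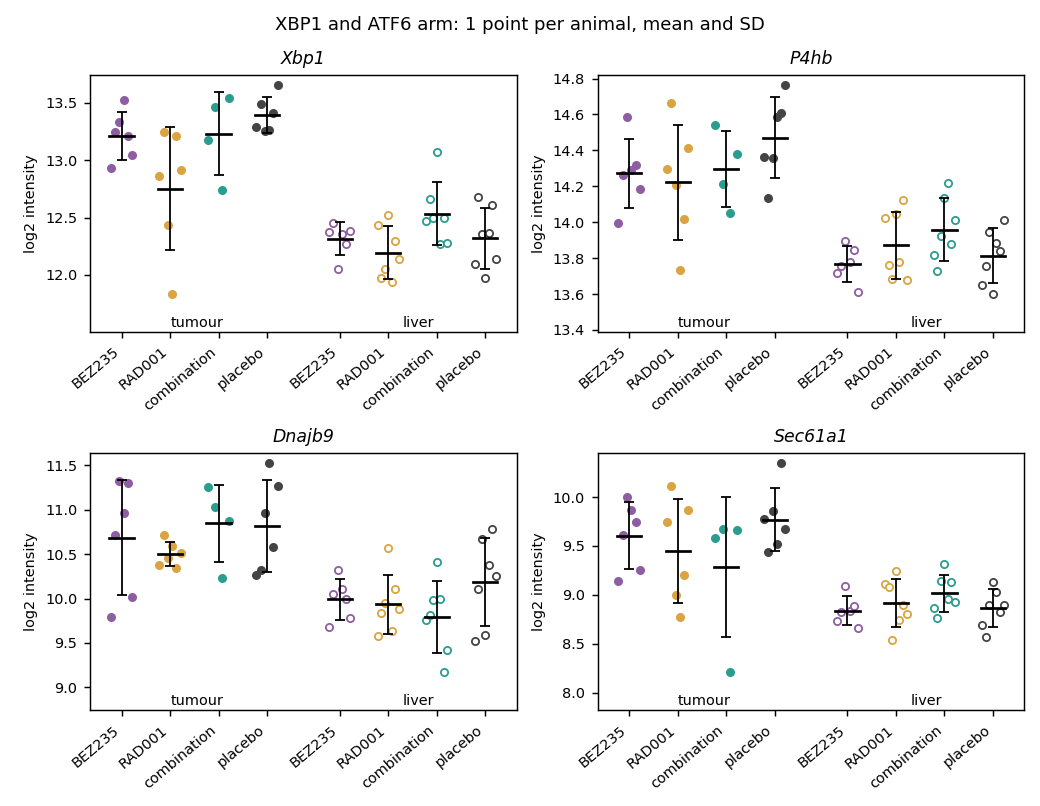
Log2 intensity of Xbp1, P4hb, Dnajb9 and Sec61a1 in every animal, tumours (filled points) left of livers (open points) and the treated groups left of placebo, with mean and SD bars. Placebo tumour averages of Xbp1 lie at 13.26 or above and all 7 placebo livers at 12.68 or below, while Dnajb9 overlaps between the tissues.

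In the chaperone class the rises were modest and the best known members were not among them. P4hb, the prototype protein disulfide isomerase, had 14.14, 14.48 and 14.76 in tumours, against 13.60, 13.84 and 14.01 in livers, with no overlap (0.66, SE 0.11, adjusted p = 7.26e-06). Pdia6, another disulfide isomerase and one of the genes with the stress element, had 7.79, 8.46 and 9.48 in tumours, against 7.06, 7.73 and 8.40 in livers (0.88, SE 0.29, adjusted p = 0.0154). Here the groups overlapped, although every tumour average exceeded the liver mean. Dnajb9 (ERdj4), a BiP co-chaperone and XBP1 target, had 10.26, 10.77 and 11.52 in tumours, against 9.52, 10.25 and 10.79 in livers (0.63, SE 0.22, adjusted p = 0.0191). Dnajc3, a further BiP co-chaperone whose promoter holds the stress element, had 10.71, 10.89 and 11.09 in tumours, against 10.03, 10.54 and 10.70 in livers (0.46, SE 0.17, adjusted p = 0.0312).

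These smaller calls were lost when certain single animals were left out, while the differences kept their sign. The call of Pdia6 was lost without placebo animal 696 (adjusted p = 0.0582), that of Dnajb9 without animal 744 or 748 (highest adjusted p 0.0844), and that of Dnajc3 without 696, 710, 748 or 771 (highest 0.0734). Xbp1, P4hb and Sec61a1 kept theirs under every alternative and every animal left out.

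Hspa5, which encodes BiP, the main chaperone of the compartment, did not pass. Its probe was dim, with a median intensity of 43.5, and it averaged 6.03 ± 0.58 in tumours and 5.67 ± 0.37 in livers (SD, n = 6 and 7, difference 0.36, SE 0.26, adjusted p = 0.304). Hsp90b1, the Hsp90 of the compartment, was bright and missed the limit narrowly (12.43 ± 0.36 in tumours, 12.03 ± 0.30 in livers, 0.41, SE 0.17, adjusted p = 0.0524). Pdia3, which works with the lectin chaperones, had 12.36, 12.65 and 13.03 in tumours, against 12.06, 12.38 and 12.58 in livers, and was equally near the limit (0.33, adjusted p = 0.0523). The other 4 members of the class, Pdia4, Creld2, Calr and Hyou1, had differences of 0.52, 0.34, 0.18 and -0.36 and adjusted p values of 0.0726 to 0.479.

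Degradation and translocation genes did not move as a block. Sec61a1, the pore of the translocation channel, had 9.44, 9.73 and 10.35 in tumours, against 8.56, 8.90 and 9.14 in livers. The groups did not overlap (0.90, SE 0.18, adjusted p = 9.75e-05). Sec61b, its small partner, had a difference of 0.42 (adjusted p = 0.123). On the degradation side, Syvn1 (0.33), Edem1 (0.19), Sel1l (-0.13) and Herpud1 (-0.35) did not pass. Herpud1, a membrane organiser of the degradation complex that both arms are known to induce, was lower than the liver mean in 6 of 6 tumours (13.82 ± 0.23 against 14.18 ± 0.23, adjusted p = 0.0507), and its second probe gave -0.40. Without placebo animal 696 it passed downward (-0.41, adjusted p = 0.0402).

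The ATF4 arm held the largest differences of the set. Ddit3, which encodes the stress transcription factor CHOP, had 7.94, 9.39 and 10.01 in placebo tumours, against 5.82, 6.86 and 7.52 in placebo livers. No tumour overlapped a liver, and the difference of 2.33 (SE 0.35, adjusted p = 4.77e-07) was a 5.03-fold higher level, with 1.75 from its second probe. Trib3, a pseudokinase that ATF4 and CHOP induce, had 6.17, 6.76 and 7.70 in tumours, against 4.74, 5.21 and 5.96 in livers. It rose by 1.69 (SE 0.32, adjusted p = 3.39e-05) without overlap, and 4 of the 7 livers were above background.

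Atf4 itself had 9.64, 9.89 and 10.09 in tumours, against 9.09, 9.18 and 9.57 in livers (0.60, SE 0.13, adjusted p = 0.00029). Its mRNA does not show how much of it is translated, which is the step at which ATF4 is mainly controlled. Atf5, a relative under similar translational control, had 11.85, 12.31 and 12.42 in tumours, against 11.29, 11.52 and 11.78 in livers (0.72, SE 0.17, adjusted p = 0.000455). Neither gene overlapped between the tissues.

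Chac1, an enzyme that degrades glutathione, had the widest range of the arm in placebo tumours. Tumour values were 6.22, 8.87 and 10.89, against 6.86, 7.33 and 7.92 in livers, so that the tumour of animal 696 lay below every liver while 5 of 6 lay above the liver mean. The rise of 1.46 (SE 0.48, adjusted p = 0.0138) was lost without animal 748 or 769 (highest adjusted p 0.0737), and with the animal as a fixed block (adjusted p = 0.300). Asns, asparagine synthetase, had an SD of 1.61 in those tumours, as Chac1 did, with 7.69, 9.88 and 11.62 in tumours, against 6.72, 8.43 and 9.37 in livers (1.34, SE 0.58, adjusted p = 0.0663). It passed without animal 744, 748 or 771 (adjusted p = 0.0455, 0.025 and 0.0163).

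Slc7a11, the cystine importer, exceeded background in 9 of 10 placebo tumours and 1 of 7 placebo livers. It had 4.40, 5.70 and 6.96 in tumours, against 4.38, 4.66 and 4.93 in livers (1.08, adjusted p = 0.125). Slc7a5, an importer of large neutral amino acids, had a difference of 0.62 (adjusted p = 0.0551). Ppp1r15a (GADD34), which directs phosphatase to eIF2alpha as an inducible feedback, differed little (6.57 ± 0.26 in tumours, 6.51 ± 0.21 in livers, adjusted p = 0.892). Vldlr, Slc3a2 and Cebpg were dim, and none of them passed (adjusted p = 0.645, 0.875 and 0.846).

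**Figure D3:**
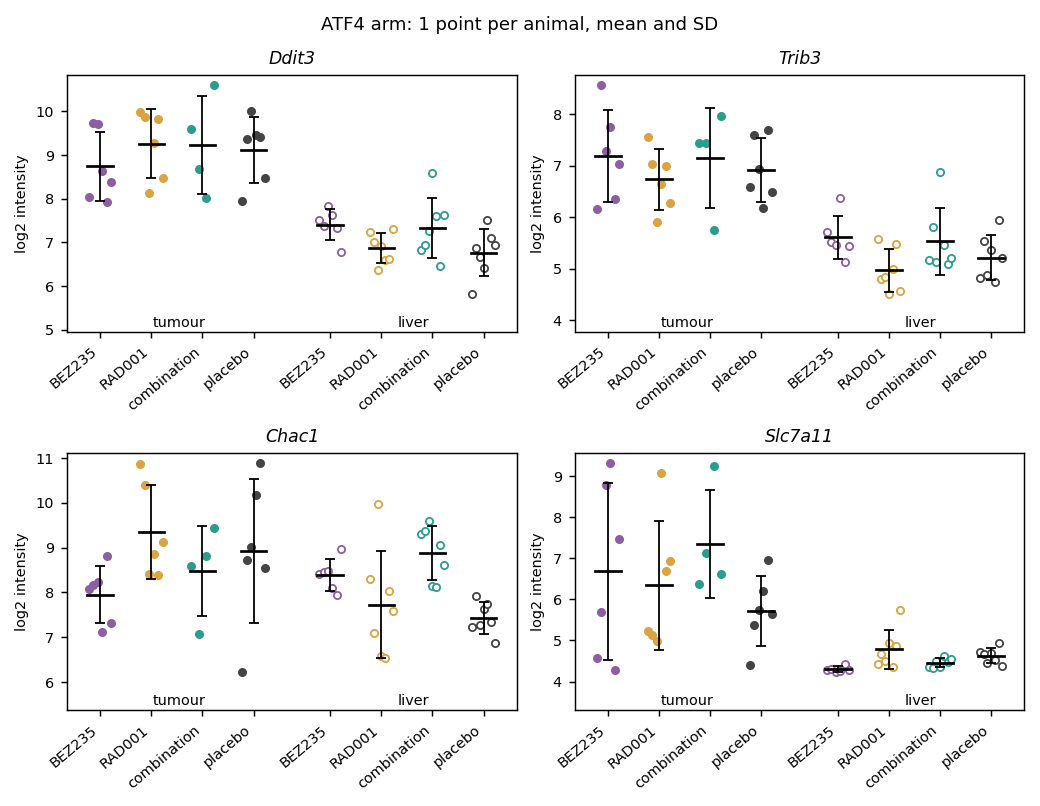
Log2 intensity of members of the ATF4 arm in every animal, tumours (filled points) left of livers (open points) and the treated groups left of placebo, with mean and SD bars. Averages of Ddit3 and Trib3 separate placebo tumours from placebo livers, and those of Chac1 span 6.22 to 10.89 in placebo tumours.

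Tumours of treated animals differed from the livers of the same treatment in much the same direction. With BEZ235, 14 members rose and none fell, while 14% of all genes rose and 12.1% fell (26% in either direction). With RAD001, 12 rose and 1 fell, against 14.7% and 13.7% of all genes (28.5% in either direction). With the combination, 11 rose and 1 fell, against 10.5% and 8.72% of all genes (19.2% in either direction). Without the animals with liver-like tumours the rises numbered 18, 12 and 15, against 15.7%, 14.8% and 11.6% of all genes. Over the 4 comparisons, 7 members rose each time. For these 7 the whole-array share of genes that rose in all 4 was 7.12%. The 4 comparisons use different animals, but the spread was estimated over all of them together.

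Xbp1 had 12.93, 13.23 and 13.52 in BEZ235 tumours, against 12.05, 12.37 and 12.45 in BEZ235 livers (0.89, adjusted p = 3.26e-05). In RAD001 animals the values were 11.83, 12.89 and 13.25 in tumours, against 11.94, 12.14 and 12.52 in livers (0.55, adjusted p = 0.00489), and the liver-like tumour of animal 732 lay below every liver. The 4 combination tumours had 13.18, 13.47, 12.74 and 13.55, against 12.27, 12.50 and 13.07 in livers (0.70, adjusted p = 0.00276). The combination call was lost without animal 775 (adjusted p = 0.0544).

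P4hb rose by 0.51 with BEZ235, 0.35 with RAD001 and 0.35 with the combination (adjusted p = 0.000879, 0.0167 and 0.0484). Dnajb9 rose by 0.69, 0.57 and 1.07 (adjusted p = 0.0171, 0.043 and 0.00123), and its 4 combination tumours had 11.25, 11.03, 10.23 and 10.87, against 9.17, 9.81 and 10.42 in livers. Sec61a1 rose by 0.76 with BEZ235 and 0.53 with RAD001 (adjusted p = 0.00185 and 0.0244). In combination animals its difference was 0.27 (adjusted p = 0.418), with 3 tumours between 9.58 and 9.67 and the liver-like tumour of animal 773 at 8.21. Without that animal it rose by 0.65 (adjusted p = 0.0153).

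Some sensors and chaperone-side genes passed only once or in a pair of comparisons. Hsp90b1 (0.58, adjusted p = 0.00886) and Eif2ak3 (0.57, adjusted p = 0.0208) rose in BEZ235 tumours. Neither passed with RAD001 or the combination. Ern1 passed in no treatment, and it exceeded background on 3 of 10 RAD001 tumours and 0 of 7 RAD001 livers. With RAD001 it passed with 1 tumour per animal, with array weights and without the animals with liver-like tumours (adjusted p = 0.0379, 0.0443 and 0.0266). Pdia3 rose with BEZ235 (0.39) and the combination (0.47), and Pdia6 with BEZ235 (0.81, adjusted p = 0.0387). Creld2, a stress-induced protein of the compartment, and Syvn1 (HRD1), the ubiquitin ligase of degradation, rose in combination tumours by 1.13 and 0.94 (adjusted p = 0.0255 and 0.00196). With 1 tumour per animal the combination calls of Creld2, Pdia3 and P4hb were lost (0.67, 0.22 and 0.27, adjusted p = 0.234, 0.437 and 0.169). So were the call of Atf5 with the combination and those of Pdia3 and Asns with BEZ235 (adjusted p = 0.0825, 0.177 and 0.0887). Separate tumours of animal 713 stood at 13.11 and 10.23 for Creld2. The 4 combination tumours had 13.01, 12.69, 12.26 and 12.76 for Syvn1, against 11.04, 11.75 and 12.47 in livers. The tests of whether these differences departed from those in placebo animals found none past the limit. Hspa5 passed in no treatment, with differences of 0.27, 0.08 and 0.69. In the 4 combination animals that gave both tissues, with the animal as a fixed block, its difference was 1.05 (adjusted p = 0.00115). Ppp1r15b fell with RAD001 (-0.73, adjusted p = 6.5e-05, no overlap) and with the combination (-0.45, adjusted p = 0.0368), and the BEZ235 difference of -0.37 had an adjusted p of 0.053, which passed without animal 693, 725 or 759 (at most 0.047).

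Within the ATF4 arm, Ddit3 had 7.93, 8.51 and 9.72 in BEZ235 tumours, against 6.78, 7.44 and 7.82 in livers (1.34, adjusted p = 0.00367). It had 8.12, 9.54 and 10.00 in RAD001 tumours, against 6.38, 6.93 and 7.31 in livers (2.38, adjusted p = 5.8e-07). The combination tumours had 9.61, 8.67, 8.02 and 10.60, against 6.46, 7.26 and 8.58 in livers (1.92, adjusted p = 0.000307). Tumour averages and livers of Ddit3 did not overlap with BEZ235 or RAD001. They overlapped with the combination, where the liver of animal 742 stood at 8.58. Members without overlap numbered 4 upward and 0 downward with BEZ235 (all genes 4.51% and 3.46%), 2 and 1 with RAD001 (4.94% and 4.64%), and 1 and 0 with the combination (4.09% and 4.03%).

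Trib3 rose by 1.59, 1.76 and 1.64 with BEZ235, RAD001 and the combination (adjusted p = 0.000235, 2.7e-05 and 0.000776). It exceeded background in 3 of 7 RAD001 livers, so the size of the RAD001 difference rests in part on livers at background. Atf4 rose by 0.42, 0.47 and 0.55, and Atf5 by 0.53, 0.68 and 0.65. Chac1 rose in RAD001 tumours, with 8.38, 9.00 and 10.87, against 6.53, 7.58 and 9.97 in livers (1.56, adjusted p = 0.0101). With the animal as a fixed block the difference was 0.94 and did not pass (adjusted p = 0.206). Chac1 had differences of -0.43 with BEZ235 and -0.43 with the combination (adjusted p = 0.584 and 0.66). Asns rose by 1.62 with BEZ235 and 2.05 with RAD001 (adjusted p = 0.0374 and 0.00491), and its combination difference of 1.65 had an adjusted p of 0.0668. Slc7a5 rose with RAD001 (0.72, adjusted p = 0.0284), and its differences with BEZ235 and the combination were -0.03 and -0.30 (adjusted p = 0.957 and 0.551).

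Slc7a11 gave the largest differences with BEZ235 and with the combination, 2.35 and 2.89. It exceeded background in 7 of 10 BEZ235 tumours and 0 of 6 BEZ235 livers, and in 6 of 7 combination tumours and 0 of 7 combination livers. Its levels were 4.28, 6.59 and 9.31 in BEZ235 tumours, against 4.23, 4.29 and 4.43 in livers, and 6.37, 7.14, 9.26 and 6.62 in the 4 combination tumours, against 4.34, 4.47 and 4.63 in livers. With livers set at the lowest signal above background, its mean was at least 3.40-fold higher in BEZ235 tumours and at least 5.37-fold higher in combination tumours. The limma adjusted p values of 0.00123 and 0.000521 belong to the differences of 2.35 and 2.89 and do not test these bounds. BEZ235 tumours of animals 693 and 755 stood at 4.57 and 4.28, so the BEZ235 bound does not hold for every animal. Both bounds rest on the mean over the tumours of an animal. With 1 tumour per animal the BEZ235 difference was 1.27 and did not pass (adjusted p = 0.186). In RAD001 animals it rose by 1.57 (adjusted p = 0.0242). That call was lost without animal 732 or 763 (highest adjusted p 0.187) and with 1 tumour per animal (1.53, adjusted p = 0.0746). It was also lost with every tumour as its own array and without the animals with liver-like tumours. Among the combination averages per animal that of animal 773, with its liver-like tumour, was the highest. A separate tumour of animal 726 was higher, at 10.42.

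Several of these calls were lost when a single animal was left out. With BEZ235, Eif2ak3 was lost without animal 697 (adjusted p = 0.0924), Dnajb9 without 712 or 755, Atf4 without 697 or 755, and Atf5 without 693 or 697, at adjusted p values of at most 0.0884, 0.126 and 0.0931. Pdia3, Pdia6 and Asns with BEZ235 were each lost when any one of 4 or 5 animals was left out (highest adjusted p 0.111, 0.125 and 0.106). With RAD001, P4hb was lost without 727 or 772 (0.104), Sec61a1 without 700, 727 or 772 (0.123), Slc7a5 without 745 or 763 (0.198) and Dnajb9 when any one of 7 animals was left out (0.103).

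With the combination, Ppp1r15b, P4hb, Creld2, Atf5, Pdia3 and Atf4 were lost without 4, 4, 3, 3, 2 and 1 of the animals (highest adjusted p 0.243, 0.341, 0.244, 0.101, 0.22 and 0.075). Animal 713 or 775 was among those for each of the 6. A fixed animal block, fitted on the animals that gave both tissues, ended further calls. With BEZ235 these were Eif2ak3, Pdia3, Pdia6, Atf5 and Asns (adjusted p = 0.054, 0.0512, 0.0919, 0.0636 and 0.119). With RAD001 they were P4hb, Sec61a1, Atf4 and Slc7a5 (0.14, 0.139, 0.0909 and 0.0992) beside Chac1, and with the combination Ppp1r15b and P4hb (0.0682 and 0.0595). The same fit added Hsp90b1 with RAD001 and in placebo animals (adjusted p = 0.023 and 0.0443), Sec61b and Syvn1 with BEZ235 (0.0395 and 0.0221) and Pdia6 with the combination (0.0382).

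In all, 25 of the 51 member differences past the limit held under every alternative and every animal left out, and none changed sign.

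The other genes of the pathway, listed from its known targets, also leaned upward in placebo animals. On the chaperone side 47 of 54 listed genes were tested, and 22 rose and 3 fell (median 0.33), where 18.8% of all genes rose and 16% fell. The largest rises were Fkbp11, a prolyl isomerase of the compartment (3.17), Kdelr3, a receptor that returns resident proteins to it (2.92), Dnajc10, a disulfide reductase (1.93), Creb3l2, a membrane-bound transcription factor (1.59), and Ostc, a subunit of the glycosylating complex (1.35). The falls were Ero1b, an oxidase of disulfide isomerases (-1.21), Derl2, a degradation channel protein (-0.44), and Creb3l3, a hepatic membrane-bound transcription factor (-0.43). In treated animals 18, 15 and 15 rose and 1, 3 and 1 fell with BEZ235, RAD001 and the combination, where 14%, 14.7% and 10.5% of all genes rose and 12.1%, 13.7% and 8.72% fell.

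Of the wider ATF4 arm 31 of 39 listed genes were tested, and 15 rose and 6 fell in placebo tumours (median 0.45), beside the same 18.8% and 16% of all genes. Psat1, of serine synthesis, rose by 4.41, Fgf21, a stress hormone of liver, by 3.49, and Slc1a4, a neutral amino acid transporter, by 2.38. The transcription factor Atf3 rose by 2.15 and the stress protein Nupr1 by 1.81. The falls included Cth, which makes cysteine (-2.53), the mitochondrial serine enzyme Shmt2 (-1.01) and the tRNA synthetases Tars, Mars1 and Aars (-0.58, -0.49 and -0.41). Known targets of ATF4 thus lay on both sides. With BEZ235, RAD001 and the combination 15, 17 and 15 rose and 4, 4 and 3 fell, beside the shares of all genes just given for each treatment.

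Drug treatment moved no member past the limit. In BEZ235, RAD001 and combination tumours, each against placebo tumours, 0 of 33 members passed, as did 0% of all genes. In livers the counts were again 0 of 33 for each drug, while 0.0286%, 0% and 0.276% of all genes passed with BEZ235, RAD001 and the combination. The same held for the 6 comparisons between treatments and for the 3 differences between a drug's effect in tumours and its effect in livers. At an unadjusted p under 0.05, between 0 and 8 of 33 members lay past it in a comparison, 41 of 495 member differences in all. Whole-array shares at that unadjusted limit were 5.32%, 7.05% and 7.99% for BEZ235, RAD001 and combination tumours and 5.15%, 6.42% and 8.44% for their livers. The comparisons with placebo share the placebo animals.

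**Figure D4:**
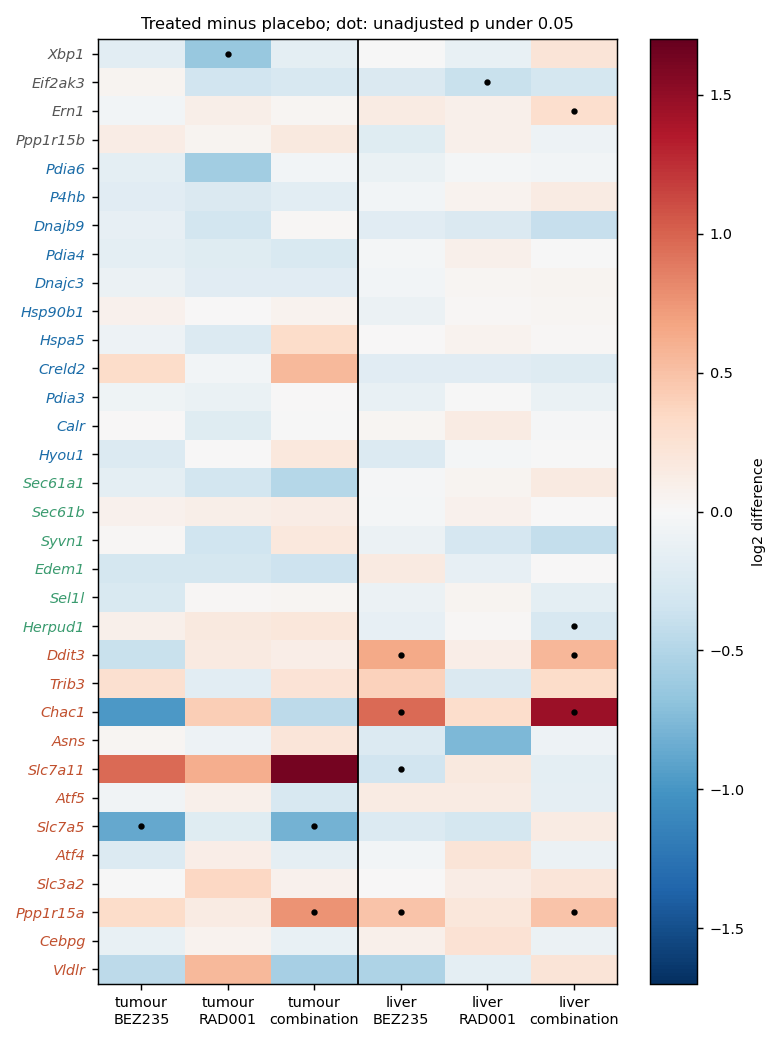
Log2 difference of treated minus placebo for the tested members (rows) in tumours and in livers for BEZ235, RAD001 and the combination (columns), on a colour scale centred at 0, with dots at an unadjusted p under 0.05. No cell passes the adjusted limit, and the largest liver difference is that of Chac1 with the combination, 1.46.

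Among tumours the member with the lowest p was Xbp1 with RAD001. The 6 RAD001 tumours had 11.83, 12.89 and 13.25 as lowest, median and highest, against 13.26, 13.35 and 13.66 in the 6 placebo tumours. On averages per animal, all RAD001 values lay below all placebo values, as 0.162% of genes did. Separate tumours overlapped, with 13.44 in a tumour of RAD001 animal 763 and 12.67 in one of placebo animal 747. The Xbp1 difference of -0.64 (SE 0.19) had an adjusted p of 0.63 and an unadjusted p of 0.00322. The lowest 2 of the 6 were the liver-like tumours of animals 732 and 730. Over all alternatives its difference ran from -0.74 to -0.34 and its adjusted p from 0.0839 to 0.955. Xbp1 differed by -0.18 in BEZ235 tumours and -0.16 in combination tumours (adjusted p = 0.972 and 0.885).

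Averages of Slc7a5 were below the placebo mean of 6.66 in 6 of 6 BEZ235 animals (5.35, 5.82 and 6.10, against 5.81, 6.76 and 7.34 in placebo tumours). They were also below it in all 4 combination animals (5.91, 5.82, 5.45 and 6.23). A separate tumour of BEZ235 animal 712 stood above it, at 6.92. The mean differences of -0.88 and -0.80 had adjusted p values of 0.909 and 0.535. With RAD001 its difference was -0.21. Ppp1r15a was higher in the combination tumours (7.23, 7.55, 7.14 and 7.40, against 6.25, 6.48 and 6.91 in placebo tumours). Its averages per animal did not overlap, as held for 0.972% of genes upward (0.77, adjusted p = 0.522). Slc7a11 had the widest combination difference, 1.62, and did not pass.

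The best known members of both arms did not pass in tumours. In BEZ235, RAD001 and combination tumours Hspa5 differed by -0.08, -0.23 and 0.32 and Hsp90b1 by 0.07, 0.0028 and 0.06. Atf4 differed by -0.23, 0.11 and -0.15, Ddit3 by -0.37, 0.15 and 0.11, and Trib3 by 0.28, -0.18 and 0.23. Asns differed by 0.04, -0.08 and 0.21, Chac1 by -0.98, 0.42 and -0.45, and Eif2ak3 by 0.04, -0.33 and -0.27, while Ern1 was too dim to compare. The standard errors were 0.15 to 0.16 for Atf4, 0.45 to 0.51 for Ddit3, 0.41 to 0.45 for Trib3 and 0.77 to 0.86 for Asns, so differences of these sizes could not be told from 0. The members' median difference was -0.08, -0.04 and 0.02.

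In livers the member that stood out was Chac1. The 7 combination livers had 8.12, 9.05 and 9.59, against 6.86, 7.33 and 7.92 in the 7 placebo livers, with no overlap, which held for 0.172% of genes upward. The difference of 1.46 (SE 0.35) had an adjusted p of 0.0757, which ran from 0.00964 to 0.389 over the alternatives and passed when only these 2 groups were fitted (0.00964) or without the animals with liver-like tumours (0.025). The 6 BEZ235 livers had 7.94, 8.44 and 8.96, all above the placebo livers as well (0.96, SE 0.37, adjusted p = 0.911). RAD001 livers spread from 6.53 through 7.58 to 9.97 (0.30, adjusted p = 0.935).

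Ddit3 and Ppp1r15a leaned the same way in those livers. Ddit3 was higher by 0.65 with BEZ235 and 0.57 with the combination (adjusted p = 0.911 and 0.518), and by 0.11 with RAD001. Ppp1r15a was higher by 0.49 and 0.48 (adjusted p = 0.683 and 0.227), in 5 of 6 BEZ235 and 7 of 7 combination livers. Immediate early genes gave median liver differences of 0.28 with BEZ235 and 0.40 with the combination, and none of the 8 passed. Their part in these values was not tested.

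Other members had smaller differences in livers. In BEZ235, RAD001 and combination livers Xbp1 differed by -0.0018, -0.12 and 0.22, Hspa5 by 0.0068, 0.06 and 0.02, and Hsp90b1 by -0.11, 0.02 and 0.03. Atf4 differed by -0.05, 0.22 and -0.10, Trib3 by 0.39, -0.25 and 0.32, and Asns by -0.23, -0.77 and -0.08. Eif2ak3 differed by -0.24, -0.37 and -0.30. Ern1 exceeded background in 1 of 7 combination livers and in 0 livers of the other groups, and is not compared. All adjusted p values of the members compared here were 0.67 or above.

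Between treatments the doses differ, so the values stand side by side. Combination livers against RAD001 livers had the most members past the unadjusted limit, 8 of 33. Chac1 was again first, with 8.12, 9.05 and 9.59 in combination livers, against 6.53, 7.58 and 9.97 in RAD001 livers (1.15, SE 0.35, adjusted p = 0.169). Trib3 and Xbp1 were higher than the RAD001 mean in 7 of 7 combination livers (0.56 and 0.34), and Atf4 was lower in 6 of 7 (-0.32). Chac1 passed (1.53, adjusted p = 0.00427) when RAD001 animal 732, the highest RAD001 liver, was left out. In the 6 comparisons 0 members passed the adjusted limit. All-gene shares at it were 0.0191%, 0% and 0.00953% in tumours for the combination against RAD001, the combination against BEZ235 and BEZ235 against RAD001, and 0.877%, 0% and 0.152% in livers in the same order. At the unadjusted limit 3, 0 and 4 members lay past it in tumours, where 4.58%, 2.86% and 3.83% of all genes did, and 8, 0 and 4 in livers, where 9.79%, 3.9% and 8.59% did.

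In tumours BEZ235 and RAD001 differed most in Chac1, with 7.12, 8.12 and 8.82 in BEZ235 tumours, against 8.38, 9.00 and 10.87 in RAD001 tumours (-1.39, SE 0.60, adjusted p = 0.994). Slc7a11 in livers had 4.23, 4.29 and 4.43 with BEZ235, against 4.35, 4.67 and 5.74 with RAD001 (-0.49, SE 0.15, adjusted p = 0.225), values that lie near background.

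Whether a drug acted differently in tumour and liver was tested for each member, and none passed. Of all genes, 0%, 0.0191% and 0.00953% did for BEZ235, RAD001 and the combination. At the unadjusted limit 1, 1 and 6 members lay past it, where 5.35%, 7.5% and 8.44% of all genes did. Chac1 came first for BEZ235, where its difference from placebo was -0.98 in tumours and 0.96 in livers, a gap of -1.89 in the fit with the animal as a random block (SE 0.69, adjusted p = 0.834). For the combination the differences were -0.45 and 1.46, a gap of -1.89 (SE 0.72, adjusted p = 0.483). The same contrast tests whether the tumour-to-liver difference of Slc7a5 or Slc7a11 depended on the drug. For the combination it gave -0.91 for Slc7a5 and 1.81 for Slc7a11, with adjusted p values of 0.513 and 0.559.

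Separate tumours of an animal differed widely in several genes of the ATF4 arm and in some chaperones. In the 12 animals with 2 or 3 tumours the median range within an animal was 2.50 for Slc7a11, 1.40 for Asns, 1.21 for Trib3, 1.15 for Chac1 and 1.02 for Ddit3. Among the chaperones it was 1.01 for Pdia6, 0.75 for Hspa5, 0.70 for Creld2 and 0.31 for P4hb. Other genes of the ATF4 arm had less, 0.47 for Atf5, 0.31 for Cebpg and 0.31 for Atf4. The median range was 0.40 for Xbp1 and 0.16 for Herpud1. In combination animal 713 Ddit3 stood at 7.61 in a tumour and 11.60 in the other. The same tumours differed by 2.88 in Creld2, 2.50 in Hyou1, 2.17 in Pdia4 and 2.07 in Hsp90b1. In combination animal 726 Asns ran from 4.47 to 9.98 and Slc7a11 from 4.39 to 10.42 over 3 tumours. Averages per animal therefore stand for unlike tumours in these genes, and the drug comparisons above carry that spread.

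Across animals, members were compared in 9 pairs per tissue, on deviations from treatment means, with 100000 permutations within treatments. In the 22 tumour values Hspa5 and Hsp90b1 varied together (r = 0.76, rho = 0.72, permutation p = 0.00085 and 0.00084, adjusted p = 0.00765 and 0.00756 over 18 pairs). Without the 2 animals farthest from the median of Hspa5, r was 0.70. Within treatments of at least 6 animals r was 0.87 for BEZ235, 0.37 for RAD001 and 0.78 for placebo. Trib3 and Ddit3 did likewise (r = 0.74, rho = 0.74, permutation p = 0.00048 and 0.0006, adjusted p = 0.00765 and 0.00756, r = 0.67 without the 2 farthest, and 0.79, 0.96 and 0.35 within BEZ235, RAD001 and placebo).

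The other 7 pairs did not pass in tumours. Hspa5 gave r = -0.08 with Xbp1, -0.04 with Atf4 and 0.12 with Trib3 (adjusted p = 0.829, 0.878 and 0.829). The sign of the pair Hspa5 with Atf4 varied, at 0.71 within BEZ235, -0.77 within RAD001 and -0.42 within placebo tumours. Trib3 gave r = 0.18 with Chac1 and 0.31 with Asns (adjusted p = 0.687 and 0.421). In the 27 livers no pair passed, and the closest were Hspa5 with Hsp90b1 (r = 0.45, adjusted p = 0.139) and with Pdia4 (r = 0.47, adjusted p = 0.134).

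**Figure D5:**
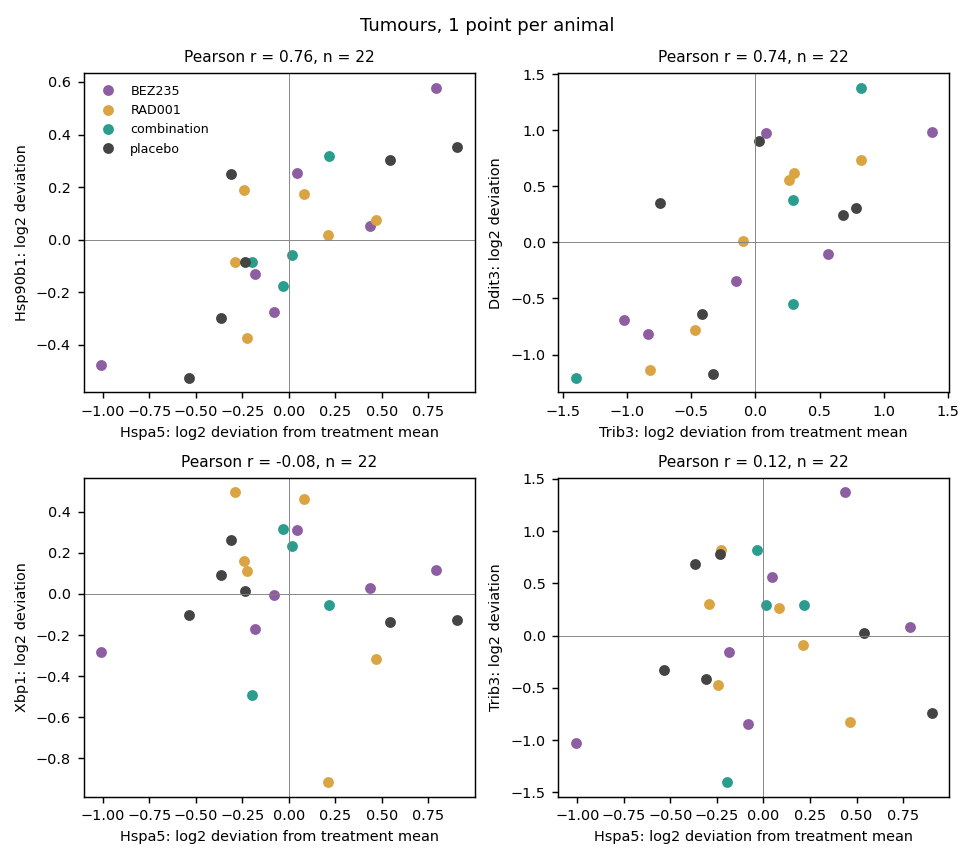
Deviations from the treatment mean (log2) for pairs of members in the 22 animals with tumours, 1 point per animal, coloured by treatment. Hspa5 with Hsp90b1 (r = 0.76) and Trib3 with Ddit3 (r = 0.74) line up, while Hspa5 with Xbp1 (r = -0.08) and with Trib3 (r = 0.12) show no common direction.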

How the data were processed

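The deposited series values are background-subtracted linear intensities from 64 Illumina arrays, 27 of liver and 37 of tumour. Per the submitters' processing notes they came from BeadStudio, whose version is not given in the sources used here. The brightest deposited intensity was the same on all arrays of a treatment, so these values carry a normalization by treatment. The arrays' number limits the precision, and no read depth applies. Another deposited table has 128 value columns that were not used.

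The intensities were quantile-normalized over all arrays, corrected with normexp (noise SD 7.02 from mirrored negative values, offset 16) and taken to log2. A probe was kept above 14.0 units on at least 6 arrays, which left 15244 of 25697 probes. The brightest probe stood for a gene. Gene symbols came from the platform annotation, updated by Entrez number for 23962 of 23978 probes with 1 symbol; 1719 had none. Tumours of an animal were averaged, since the number in the sample titles names the mouse. Differences were tested with limma 3.58.1 (R 4.3.3), two-sided, with Benjamini-Hochberg adjustment over 10495 genes. Tumour against liver was fitted on the 8 groups together, the animal being a random block (correlation 0.0968), and treatments within a tissue. Only the limma fit of placebo tumour against placebo liver was tried on simulated normal values, drawn without correlation within an animal. Normalization, background correction, filter and averaging of tumours were not simulated.

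The members and lists were chosen with earlier results of these data known. In each comparison the members past the limit are named, up to 10 a class by size. In tumour against liver and against placebo, 10 members are named also where they did not pass. These are Xbp1, Ern1, Eif2ak3, Hspa5, Hsp90b1, Atf4, Ddit3, Trib3, Asns and Chac1, though not each with a difference. Of the other pathway genes the 5 largest changes each way are named. Alternatives covered normalization, background, filter, probe choice, tumours per animal, array weights, block, samples in the fit and each animal left out. The score for liver-like tumours, and leaving those animals out, were chosen after seeing the data.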

Additional observations from a re-analysis of the deposited data

Results flagged for a closer look

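In groups of 4, 6 or 7 animals, 16 of 264 member values at an end of their group stood farther from the rest than Dixon's critical value allows, 6.06%, where chance gives about 1 in 20. In tumours these were Calr in BEZ235 animal 712 (11.00), Pdia4 in RAD001 animal 732 (9.69), Cebpg in RAD001 animal 772 (5.21), Herpud1 and Sec61a1 in combination animal 773 (13.61 and 8.21), and Atf5 in placebo animal 771 (11.85). In livers they were Cebpg, Slc3a2 and Slc7a11 in BEZ235 animal 755 (5.73, 5.27 and 4.43), Sel1l, Syvn1 and Slc7a11 in RAD001 animals 732, 745 and 772 (10.47, 12.51 and 5.74), Ern1 in combination animal 764 (5.33), Trib3 and Slc7a5 in combination animal 742 (6.88 and 7.59), and Hyou1 in placebo animal 696 (5.71). Cebpg, Slc3a2, Slc7a11 and Ern1 lie near background.

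Chac1 differed from placebo in opposite directions in the tumours and livers of BEZ235 animals. On averages per animal, all BEZ235 tumours lay below the placebo tumour mean of 8.93 and all BEZ235 livers above the placebo liver mean. A separate tumour of animal 712 lay above that tumour mean, at 9.46. The gap was -1.89 on the log2 scale (adjusted p = 0.834 by limma). The cause of the gap was not tested.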

How the results depend on the processing

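Of 51 member differences past the limit in tumour against liver, 25 held under every alternative and animal left out, 21 were lost under at least 1 alternative, 23 without at least 1 animal, and 0 changed sign. Members higher in placebo tumours numbered 17 with array weights, against 11 as reported, and combination tumours had 7 with 1 tumour per animal, against 11. Members lower in placebo tumours numbered 2 with an offset of 50, a saddle-point fit, a stricter filter, the mean over probes, array weights, every tumour as its own array, and without the liver-like tumours' animals; the second was Herpud1 each time. In BEZ235 tumours 1 was lower with the stricter filter, array weights, or without those animals, in RAD001 tumours 2 with no filter, and in combination tumours 0 with no filter, array weights, every tumour as its own array, no replicate block, a fixed replicate block, or without those animals. Chac1 made the count in combination livers against placebo livers 1 when 2 groups were fitted or without those animals, and against RAD001 livers 1 without those animals, and Slc7a11 made that of BEZ235 against RAD001 livers 1 with the saddle-point fit. Among livers 1 correlated pair passed on levels. Leaving out each animal gave 9 to 13 higher and 1 to 2 lower in placebo tumours, 8 (without 697) to 15 and 0 to 1 with BEZ235, 9 to 12 and 1 with RAD001, 6 (without 775) to 14 and 0 to 1 with the combination, and 0 to 1 for combination against RAD001 livers. Members higher with no replicate block numbered 13, 11, 10 and 11, and with a fixed replicate block 11, 8, 12 and 11, in BEZ235, RAD001, combination and placebo animals. The causes were not tested. Ern1, Slc3a2, Cebpg and Slc7a11 lie so near background that their differences are bounds at best.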
